A study of Mus musculus with 6 samples.

Results

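Complement components and receptors were described here through 9 genes of the murine tissues surrounding BEC: the recognition chains C1qa, C1qb and C1qc, the proteases C2 and Cfb, the thioester proteins C3 and C4b, and the anaphylatoxin receptors C3ar1 and C5ar1. The members were chosen by name as the rows of the count table with these symbols. All 9 were found among 48440 genes, and all 9 were among the 15257 genes with enough reads to be tested.

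BEC is cartilage engineered from rabbit bone marrow mesenchymal stem cells on a PLGA scaffold. It was wrapped in an electrospun membrane of PCL and collagen and placed under the skin of BALB/c nude mice. Poly(A) RNA of the tissue entangled with it was sequenced at 12 weeks, in 3 samples with a membrane without drug (0%-Axitinib group) and 3 samples with a membrane holding 3% axitinib by weight (3%-Axitinib group). Axitinib is an inhibitor of the receptor tyrosine kinases that bind vascular endothelial growth factors. The mice were male and aged 6 to 8 weeks when purchased, and nude mice lack a normal thymus and most T cells. The sample labels name the samples of the former group untreated. Reading them as 0%-Axitinib was based on the deposited protocol, in which every membrane was made with either 0% or 3% axitinib. The publication also names the 0%-Axitinib and 3%-Axitinib groups as those sequenced. Its control group, BEC implanted with no membrane, is not named there for sequencing. A pair of constructs of 1 group was placed in each mouse, and the labels do not name the mouse. The p-values therefore measure only the spread between these samples, which may be technical.

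Complement is a cascade of plasma and tissue proteins that marks surfaces for uptake and recruits inflammatory cells. C1q starts the classical pathway, C4b and C2 form its C3-cleaving enzyme, and factor B forms that of the alternative pathway. Both lead to cleavage of C3 and C5, whose small fragments act on receptors of myeloid cells. Macrophages are a known source of C1q, and fibroblasts and hepatocytes of C3 and C4.

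Depth was 17761968, 16716411 and 18005908 reads on genes in replicates 1, 2 and 3 of the 0%-Axitinib group and 9225518, 11686084 and 18403795 in those of the 3%-Axitinib group. Levels are CPM (reads scaled to a common library size) after TMM normalization, given in the order of replicates 1, 2 and 3 throughout. A count of 3 corresponded to between 0.157 and 0.330 CPM, a limit that covers counting error only. Unmapped reads made up 5.47%, 3.84% and 14.9% of the 0%-Axitinib libraries and 48.4%, 29.2% and 16.8% of the 3%-Axitinib libraries. The publication describes harvesting the samples together with entangled murine tissue, and reads were mapped to the mouse genome alone. Rabbit RNA of the BEC may thus be present. Its part in the unmapped reads or in the counts on mouse genes, and whether it differed by group, was not tested. No pair of samples within a group agreed within sampling noise.

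Several libraries stood apart by markers of other cell types. Of all tested genes, 11.7% were lower in the 3%-Axitinib group and 9.54% higher by the criterion given below. The 12 neutrophil markers summed to 86.4, 94.6 and 38192 CPM in the 0%-Axitinib group and to 197, 153 and 75.6 CPM in the 3%-Axitinib group. Replicate 3 of the 0%-Axitinib group thus held neutrophil RNA, and these 12 markers made up 3.91% of its gene reads. The most abundant marker was S100a9 (by mean CPM over the 6 samples, here and for the other lists). Of the 10 tested neutrophil markers, 6 met the criterion given below and were lower in the 3%-Axitinib group, among them Camp (log2 fold change −10.97), Ltf (−10.77) and Ngp (−10.36), and these differences rest on that library. The 6 B cell markers were also highest there, at 26.6, 105 and 458 CPM against 2.42, 3.10 and 1.68 CPM in sum, with Jchain as the most abundant. All 4 tested B cell markers were lower in the 3%-Axitinib group by the criterion, with Jchain at −7.92, Ms4a1 at −7.31 and Cd79a at −5.92. Replicate 2 of the 0%-Axitinib group held keratinocyte RNA, since the 7 markers summed to 4.59, 896 and 4.18 CPM there and to 8.36, 7.56 and 5.38 CPM in the 3%-Axitinib group, led by Krt1. Of 3 tested keratinocyte markers, Lor (−6.97) and Krt10 (−3.93) met the criterion. Replicates 1 and 3 of the 3%-Axitinib group held skeletal muscle RNA: the 12 markers, led by Acta1, summed to 144, 3.97 and 8.42 CPM in the 0%-Axitinib group and to 13921, 15.9 and 8077 CPM in the 3%-Axitinib group. Of 11 tested muscle markers, 9 were higher by the criterion, with Myh1 at 8.19, Ckm at 7.69 and Actn2 at 7.51. Tnnc2 had at most 3 counts in every sample, but 74% of its exon bases are shared with Ube2c on the opposite strand. Its counts are uncertain, since the strand setting of the counting is not known. Because of these libraries, the complement genes were also fitted without both muscle-containing samples and without both the neutrophil- and the keratinocyte-containing sample, which leaves 1 sample in a group.

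None of the 9 complement genes met the criterion of a fold change of at least 1.5 with an unadjusted p up to 0.05, by the quasi-likelihood test of edgeR. The count was 0 of 9 lower in the 3%-Axitinib group, where 11.7% of all tested genes were, and 0 of 9 higher, where 9.54% were, so that 21.2% of tested genes met the criterion in either direction. An unadjusted p of at most 0.05 was reached by 0 members with edgeR, by 1 with DESeq2's Wald test (C2) and by 0 with limma-voom. Of all 15257 tested genes, 3585, 4022 and 3321 reached it with these tools, in the same order. After Benjamini-Hochberg adjustment, 0 of 9 members had an adjusted p up to 0.05 with edgeR, DESeq2 or limma-voom, against 0.00655% of tested genes with edgeR, 1960 of 15257 with DESeq2 and 2 with limma-voom. DESeq2 gave no adjusted p for Cfb. The groups overlapped in all 9 members, while the 3%-Axitinib samples lay below every 0%-Axitinib sample in 16.6% of tested genes and above in 14.7%. The log2 fold change was positive in 6 members and negative in 3, with a median of 0.12 against −0.034 over all tested genes. Scaling to total counts moved the median of all genes to −0.16 and that of the members to −0.024, turned C1qa and Cfb negative, and split the genes meeting the criterion into 2448 lower and 989 higher in place of 1785 and 1456. Fewer cells of a type and less RNA per cell cannot be told apart in bulk tissue.

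The members differed far more from each other in level than between the groups. Per kilobase of exon, the mean level in the 0%-Axitinib group was 728 CPM per kb for C1qa, 404 for C1qb, 308 for C3, 268 for C1qc, 200 for C4b, 79.5 for C3ar1, 30.0 for C5ar1, 3.91 for C2 and 0.197 for Cfb. The ranges over samples did not overlap between C1qa and C1qb, between C5ar1 and C2, or between C2 and Cfb, and overlapped for the other neighbours in this order. In the 3%-Axitinib group, the order was C1qa (789 CPM per kb), C1qb (515), C3 (377), C4b (348), C1qc (262), C3ar1 (70.4), C5ar1 (20.02), C2 (6.66) and Cfb (0.213). There the ranges of the first 5 overlapped between neighbours, and those from C1qc downwards did not. The mRNA of the classical recognition chains and of both thioester proteins was thus abundant in either group, and few reads were counted on Cfb. Exon bases that Cfb and C2 share with another gene model, described below, are in the length but not in the counts, so the per-kilobase levels of these 2 genes are uncertain. The C4b level is also uncertain, because part of its sequence occurs in C4a, as described below.

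**Figure D1:**
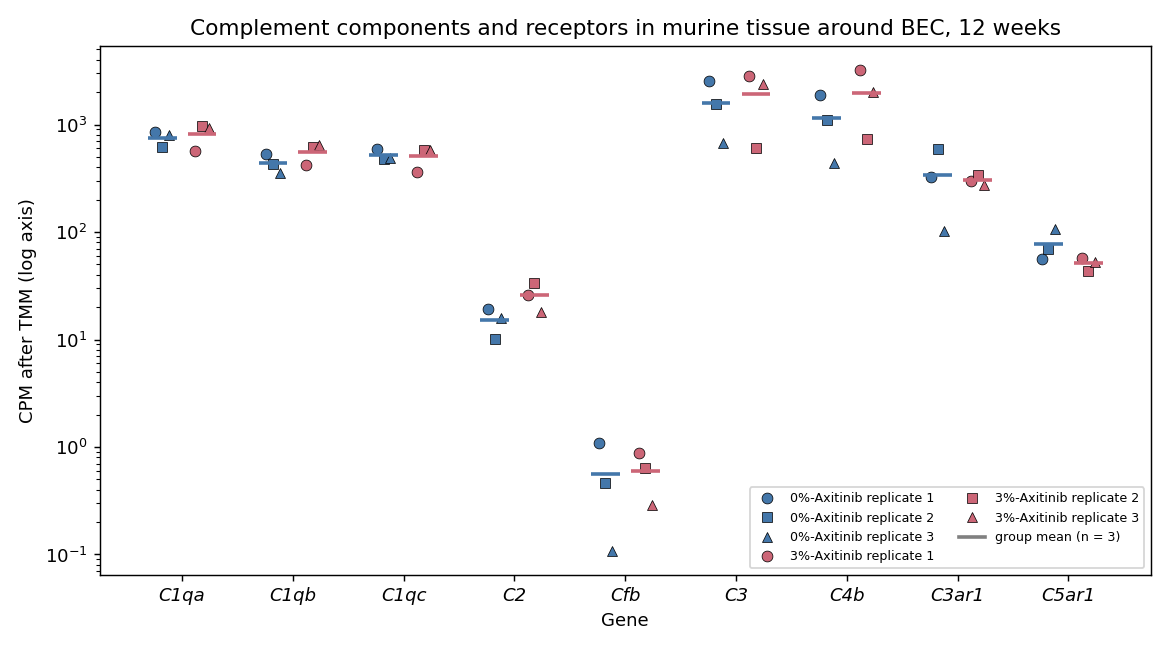
Level of the 9 complement genes in each sample, in CPM after TMM on a log axis, with symbols for replicates and bars for the group means (n = 3). The groups overlap for every gene, and the C3 and C4b samples spread over a wider range than those of the C1q chains.

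C1q is the recognition molecule of the classical pathway, built from A, B and C chains. Its genes C1qa (chr4:136895917-136898803), C1qc (chr4:136889804-136893065) and C1qb (chr4:136880129-136886187) are neighbours on the minus strand of GRCm38, and none of their exon bases is shared with another gene. C1qa, the A chain, was at 854, 615 and 803 CPM in the 0%-Axitinib group and at 573, 966 and 924 CPM in the 3%-Axitinib group. Its lowest sample was replicate 1 and its highest replicate 2 of the 3%-Axitinib group, so that all 0%-Axitinib samples lay in between. The C1qa log2 fold change was 0.12 (SE 0.31, adjusted p = 0.845; 95% interval −0.62 to 0.86). It was −0.017 without replicate 2 of the 0%-Axitinib group, −0.015 without replicate 2 of the 3%-Axitinib group, and −0.024 with scaling to total counts. It was 0.34 without the muscle-containing samples and −0.069 without the neutrophil- and keratinocyte-containing samples. For C1qb, the B chain, the samples were at 533, 433 and 350 CPM and at 421, 620 and 640 CPM. Replicates 2 and 3 of the 3%-Axitinib group lay above every 0%-Axitinib sample, and replicate 1 lay between replicates 2 and 3 of the 0%-Axitinib group. The difference was 0.35 on the log2 scale (SE 0.29, adjusted p = 0.483; 95% interval −0.33 to 1.04), with 0.49 without the muscle-containing samples and 0.060 without the neutrophil- and keratinocyte-containing samples. For C1qc, the C chain, the samples were at 595, 475 and 486 CPM and at 362, 575 and 579 CPM. Again replicate 1 of the 3%-Axitinib group was the lowest sample, and the highest was replicate 1 of the 0%-Axitinib group. The log2 difference was −0.036 (SE 0.28, adjusted p = 0.948; 95% interval −0.70 to 0.63), and it was 0.16 without replicate 1 of the 3%-Axitinib group and 0.072 without replicate 1 of the 0%-Axitinib group. It was 0.14 without the muscle-containing samples and −0.25 without the neutrophil- and keratinocyte-containing samples. Within a group, the highest C1q sample was between 1.25 and 1.69 times the lowest, and the intervals allow folds between 0.614 and 2.06 for the 3 chains.

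The chains were also compared with each other per kilobase. These ratios were 3 of 7 computed among complement genes, chosen after the values were seen and tested with exact two-sided permutation tests, whose smallest p is 0.1. The C1qb level was 1.59, 1.62 and 1.28 times the C1qc level in the 0%-Axitinib group and 2.06, 1.91 and 1.96 times in the 3%-Axitinib group. All 3%-Axitinib samples were above all 0%-Axitinib samples (exact p = 0.1, adjusted p = 0.35 over the 7 ratios). The ratio of C1qa to C1qc was 2.67, 2.41 and 3.07 against 2.94, 3.12 and 2.96, with overlapping groups (exact p = 0.3, adjusted p = 0.525). That of C1qa to C1qb was 1.68, 1.49 and 2.40 against 1.42, 1.63 and 1.51, which also overlapped (exact p = 0.3, adjusted p = 0.525).

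C3, the protein on which all pathways converge, lies on chromosome 17 (chr17:57203970-57228136). It was at 2535, 1543 and 678 CPM in the 0%-Axitinib group and at 2833, 610 and 2378 CPM in the 3%-Axitinib group. The lowest samples were replicate 3 of the 0%-Axitinib group and replicate 2 of the 3%-Axitinib group, and the highest of each group was replicate 1. The highest sample was 3.74 times the lowest in the 0%-Axitinib group and 4.65 times in the 3%-Axitinib group, a spread wider than the difference between the means of 1585 ± 929 and 1940 ± 1174 CPM (SD, n = 3). The log2 fold change was 0.29 (SE 0.68, adjusted p = 0.819; 95% interval −1.32 to 1.90). Its sign rested on single libraries, since it was −0.088 without replicate 1 of the 3%-Axitinib group, −0.075 without replicate 3 of the 0%-Axitinib group and 0.80 without replicate 1 of the 0%-Axitinib group. With both muscle-containing samples of the 3%-Axitinib group left out it was −1.40, and with the neutrophil- and keratinocyte-containing samples of the 0%-Axitinib group left out it was −0.40.

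C4b encodes C4, the thioester protein of the classical and lectin pathways, and lies in the major histocompatibility region (chr17:34728380-34743882). It was at 1871, 1113 and 442 CPM in the 0%-Axitinib group and at 3192, 741 and 2020 CPM in the 3%-Axitinib group. The order of the samples within each group was that of C3, with replicate 1 highest and replicate 3 or 2 lowest, and the groups overlapped. On the log2 scale the C4b difference was 0.80 (SE 0.68, adjusted p = 0.496; 95% interval −0.81 to 2.40). It was 1.35 without replicate 1 of the 0%-Axitinib group, 0.27 without replicate 1 and 1.18 without replicate 2 of the 3%-Axitinib group, 0.41 without replicate 3 of the 0%-Axitinib group, −0.65 with both muscle-containing samples left out, and 0.074 with the neutrophil- and keratinocyte-containing samples left out. Of the 50-base stretches of C4b, 34.6% also occur in the neighbouring paralog C4a. Reads lying wholly within them may not be assignable to 1 gene, so the C4b counts are uncertain. The reads lost in this way were not measured. The C4a counts were between 0.848% and 1.92% of the C4b counts, in overlapping groups (exact p = 0.4, adjusted p = 0.56).

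Per kilobase, the C4b level was 0.666, 0.651 and 0.588 times the C3 level in the 0%-Axitinib group and 1.02, 1.10 and 0.767 times in the 3%-Axitinib group. Every 3%-Axitinib sample was thus above every 0%-Axitinib sample (exact p = 0.1, the smallest possible; adjusted p = 0.35). In contrast, the ratio of C3 to C1qa was 0.600, 0.507 and 0.171 against 1.00, 0.128 and 0.521, with wide overlap (exact p = 0.9, adjusted p = 0.9). The libraries with the least C3 relative to C1qa were replicate 3 of the 0%-Axitinib group and replicate 2 of the 3%-Axitinib group.

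C2, the protease that joins C4b in the classical C3 convertase, and Cfb, the factor B of the alternative pathway, are adjacent genes on the minus strand (chr17:34862604-34898265 and chr17:34856374-34862518). Their counts are uncertain, because the gene model Gm20547 shares 42.8% of the C2 exon bases and 79.5% of the Cfb exon bases on the same strand. Gm20547 itself had 0 counts in every sample, and reads on bases of more than 1 gene were not counted for any gene. C2 was at 19.3, 10.0 and 16.0 CPM in the 0%-Axitinib group and at 26.2, 33.3 and 17.9 CPM in the 3%-Axitinib group. Replicates 1 and 2 of the 3%-Axitinib group were the highest samples, and replicate 3 fell between replicates 1 and 3 of the 0%-Axitinib group. The means were 15.1 ± 4.71 and 25.8 ± 7.69 CPM (SD, n = 3). With a log2 fold change of 0.77, C2 had the lowest p among the 9 members (SE 0.34, adjusted p = 0.224 with edgeR; 95% interval −0.032 to 1.57). It met the criterion without replicate 1 of the 0%-Axitinib group (0.98) and without replicate 3 of the 3%-Axitinib group (0.97), in addition to DESeq2's Wald test on all samples. Over all settings its log2 fold change lay between 0.40 (without the neutrophil- and keratinocyte-containing samples) and 1.13 (without the muscle-containing samples), and its adjusted p between 0.181 and 0.714. Cfb had 21, 8 and 2 counts in the 0%-Axitinib group and 8, 7 and 5 counts in the 3%-Axitinib group, or 1.10, 0.467 and 0.109 CPM and 0.880, 0.638 and 0.289 CPM. The Cfb groups overlapped, and replicate 3 of the 0%-Axitinib group was under the limit of 3 counts. The log2 difference of 0.058 (SE 0.86, adjusted p = 0.972) had a 95% interval from −1.97 to 2.08, which holds folds from 0.256 to 4.24. It was −0.082 with scaling to total counts, 1.01 without replicate 1, −0.054 without replicate 2 and −0.44 without replicate 3 of the 0%-Axitinib group, and −0.31 without replicate 1 and −0.013 without replicate 2 of the 3%-Axitinib group. It was 0.16 without the muscle-containing samples and −0.91 without the neutrophil- and keratinocyte-containing samples.

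C3ar1 encodes the receptor of the C3a fragment, carried by myeloid cells among others (chr6:122847138-122856161). It was at 327, 597 and 102 CPM in the 0%-Axitinib group and at 298, 337 and 273 CPM in the 3%-Axitinib group. Both the highest and the lowest sample were of the 0%-Axitinib group, with replicate 2 at 5.84 times replicate 3, while the 3%-Axitinib samples lay within 1.23 times of each other. The log2 fold change was −0.18 (SE 0.57, adjusted p = 0.871; 95% interval −1.51 to 1.16). It was −0.61 without replicate 3 and 0.49 without replicate 2 of the 0%-Axitinib group. With limma-voom it was 0.15, and with the replicate number as a block it was 0.14. Its direction thus changed with single libraries, with the tool and with the block. It was −0.039 without the muscle-containing samples and −0.12 without the neutrophil- and keratinocyte-containing samples.

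C5ar1, the receptor of C5a on neutrophils and macrophages (chr7:16246743-16259540), was at 56.2, 69.3 and 106 CPM in the 0%-Axitinib group and at 57.6, 43.7 and 53.0 CPM in the 3%-Axitinib group. The highest sample was replicate 3 of the 0%-Axitinib group, the library with neutrophil RNA, and replicate 1 of the 3%-Axitinib group lay above replicate 1 of the 0%-Axitinib group. The means were 77.1 ± 25.8 and 51.4 ± 7.07 CPM (SD, n = 3). The log2 fold change was −0.58 (SE 0.27, adjusted p = 0.242 with edgeR; 95% interval −1.22 to 0.055). Without replicate 3 of the 0%-Axitinib group the difference was −0.29, and without replicate 2 of that group as well it was −0.14, against −0.82 without the muscle-containing samples. It met the criterion without replicate 1 of the 0%-Axitinib group (−0.77) and, on all samples, with scaling to total counts (−0.70) or without the filter on low counts (−0.60). Over all settings the C5ar1 adjusted p was between 0.167 and 0.785. The part of the neutrophil RNA in this difference was not tested beyond leaving out that library. Per kilobase, C3ar1 was 3.48, 5.14 and 0.576 times C5ar1 in the 0%-Axitinib group and 3.09, 4.60 and 3.08 times in the 3%-Axitinib group. In replicate 3 of the 0%-Axitinib group C5ar1 was thus the more abundant receptor, unlike in the other 5 samples. Between the groups, the permutation test of this ratio gave an exact p of 0.9 (adjusted p = 0.9).

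Among 43 other genes of the complement system, 31 were tested, of which 2 were lower and 3 higher in the 3%-Axitinib group by the criterion, beside 11.7% and 9.54% of all tested genes. These 5 also were the genes with an unadjusted p of at most 0.05 with edgeR, beside 3585 of all 15257 genes. Of the 31, 0 had an adjusted p up to 0.05 with edgeR, where the lowest was 0.152, and 0 with limma-voom. With DESeq2's Wald test 1 had (Serping1, adjusted p = 0.0218), where 1960 of all 15257 genes were called. The median log2 fold change was 0.12, and the groups did not overlap in 3 genes that were below and 4 that were above, beside 16.6% and 14.7% of all tested genes. Serping1, the C1 inhibitor, which blocks C1r and C1s, had the highest CPM of the 5 genes that met the criterion. It was at 1431, 824 and 487 CPM in the 0%-Axitinib group and at 3159, 1830 and 2192 CPM in the 3%-Axitinib group. Each 3%-Axitinib sample exceeded each 0%-Axitinib sample, with a log2 fold change of 1.39 (SE 0.47, adjusted p = 0.152; 95% interval 0.27 to 2.505). The criterion was missed without replicate 2 of the 0%-Axitinib group (1.31) and without replicate 1 (1.13) or replicate 3 (1.44) of the 3%-Axitinib group. It was also missed with both muscle-containing samples left out (0.98) and with the neutrophil- and keratinocyte-containing samples left out (0.73). The adjusted p of Serping1 was between 0.0218 and 0.728 over all settings.

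Of 10 tested genes that initiate the classical and lectin pathways, 2 were higher and 1 was lower in the 3%-Axitinib group by the criterion. C1s2, a paralog of the C1s protease, was at 13.9, 8.75 and 12.4 CPM in the 0%-Axitinib group and at 24.2, 14.9 and 20.1 CPM in the 3%-Axitinib group. The groups did not overlap, and the log2 fold change was 0.76 (SE 0.29, adjusted p = 0.181). Without replicate 2 of the 0%-Axitinib group it was 0.58, and without replicate 1 or 3 of the 3%-Axitinib group 0.59 or 0.74. It was 0.34 without the muscle-containing samples and 0.50 without the neutrophil- and keratinocyte-containing samples, and in each of these fits it missed the criterion. Of its 50-base stretches, 26.9% also occur in C1s1 or the gene model Gm16567, so its counts are uncertain. C1s2 also missed the criterion with total counts (0.63). Masp1, a serine protease of the lectin pathway, was at 4.12, 3.32 and 0.217 CPM against 13.7, 12.2 and 8.05 CPM. Again all 3%-Axitinib samples were the higher ones, with replicate 3 of the 0%-Axitinib group far below the other samples. Its log2 fold change was 2.14 (SE 0.86, adjusted p = 0.194), and 1.59 without that replicate. In that edgeR fit its adjusted p was 0.046, the lowest over all settings, and 1252 of 15690 genes had an adjusted p of at most 0.05. Masp1 missed the criterion with total counts (2.01), without replicate 2 of the 0%-Axitinib group (2.37) and without any 1 of the 3%-Axitinib samples (1.97 to 2.32). It also missed it without the muscle-containing samples (2.23) and met it without the neutrophil- and keratinocyte-containing samples (1.44). Colec11, a collectin that recognizes sugars, was at 3.03, 0.991 and 1.36 CPM against 0.660, 0.547 and 0.811 CPM. The 3%-Axitinib samples were all the lower ones, at a log2 fold change of −1.39 (SE 0.56, adjusted p = 0.195), which was −0.79 without replicate 1 of the 0%-Axitinib group and missed the criterion there, without any 1 of the 3%-Axitinib samples, with DESeq2's Wald test, with limma-voom, with no filter on low counts (−1.43) and with the replicate number as a block (−1.25). It was −1.72 without the muscle-containing samples, short of the criterion, and −2.15 without the neutrophil- and keratinocyte-containing samples, where it met it. By the mean over all 6 samples, the most abundant gene of this role was C1ra, a C1r protease gene, at 397, 234 and 151 CPM against 529, 321 and 536 CPM. Replicate 2 of the 3%-Axitinib group lay below replicate 1 of the 0%-Axitinib group, and the log2 difference was 0.83 (SE 0.41, adjusted p = 0.266). C1ra met the criterion without replicate 1 of the 0%-Axitinib group (1.26) and was at 0.55 without replicate 3 of that group, 0.28 without the muscle-containing samples and 0.21 without the neutrophil- and keratinocyte-containing samples. Its counts are uncertain, since 50.8% of its 50-base stretches occur in C1rb or the gene model Gm18840. In the 0%-Axitinib group alone the mean of Colec12, a gene named after its values were seen, was higher (334 against 261 CPM). Mbl1, Mbl2 and Colec10, which encode soluble lectins of the same pathway, had at most 3 counts in every sample.

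In the terminal pathway, Hc, which encodes C5, was at 8.77, 8.86 and 2.93 CPM in the 0%-Axitinib group and at 2.42, 0.0911 and 1.79 CPM in the 3%-Axitinib group. All 3%-Axitinib samples lay below the 0%-Axitinib samples, with a log2 fold change of −2.25 (SE 0.91, adjusted p = 0.199; 95% interval −4.41 to −0.092). Hc missed the criterion without replicate 1 (−2.04) or 2 (−2.03) of the 0%-Axitinib group and without replicate 1 (−2.80) or 3 (−2.47) of the 3%-Axitinib group, without the neutrophil- and keratinocyte-containing samples (−2.62) and with the replicate number as a block (−2.41). It met the criterion without the muscle-containing samples, at −6.14, where the remaining 3%-Axitinib sample had 1 count. The most abundant terminal component, C7, was at 256, 117 and 67.8 CPM against 109, 42.6 and 80.5 CPM. Its groups overlapped (log2 fold change −0.93, SE 0.54, adjusted p = 0.333). C7 met the criterion without replicate 3 of the 0%-Axitinib group (−1.28) and without the neutrophil- and keratinocyte-containing samples (−1.74), and was at −0.26 without replicate 1 of that group and −1.81 without the muscle-containing samples. C8a and C8b had at most 3 counts in every sample.

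Properdin (Cfp), which stabilizes the alternative convertase, was the more abundant of the 2 genes listed for that pathway beside the members. It was at 172, 118 and 216 CPM against 126, 113 and 198 CPM. Its groups overlapped, with a log2 difference of −0.21 (SE 0.32, adjusted p = 0.712). It was 0.0017 without replicate 3 of the 0%-Axitinib group, −0.59 without the muscle-containing samples and −0.25 without the neutrophil- and keratinocyte-containing samples. Factor D (Cfd), the adipocyte protease that cleaves factor B and was named here after its values were seen, was at 124, 93.9 and 131 CPM against 110, 3.37 and 26.7 CPM. Replicates 2 and 3 of the 3%-Axitinib group were low and replicate 1 was not (log2 fold change −1.33, SE 0.98, adjusted p = 0.432). Of 5 tested regulators in fluid phase, only Serping1 met the criterion, while C4bp had at most 3 counts in every sample. Of 5 tested membrane regulators 0 met the criterion, and the most abundant, Cr1l, which protects mouse cells from C3 deposition, was at 92.9, 92.2 and 85.5 CPM against 99.5, 87.6 and 73.4 CPM (log2 fold change −0.055, SE 0.19, adjusted p = 0.875). Its groups overlapped, and the difference was 0.050 without replicate 3 of the 3%-Axitinib group, −0.051 without the muscle-containing samples and −0.11 without the neutrophil- and keratinocyte-containing samples. Cd55b had at most 3 counts everywhere. Of 5 tested genes among the other receptors, 0 met the criterion with edgeR. By the mean over all 6 samples, the most abundant was Itgax, the alpha chain of complement receptor 4, at 1392, 2253 and 316 CPM against 404, 301 and 815 CPM (log2 fold change −1.38, SE 0.72, adjusted p = 0.285). Replicate 3 of the 0%-Axitinib group was among the low samples of Itgax, and without it the log2 fold change was −1.85 with an adjusted p of 0.059, in a range from 0.059 to 0.718 over all settings. Without replicate 2 of that group it was −0.76, and without replicate 3 of the 3%-Axitinib group −1.91. Itgax met the criterion without replicate 3 of the 0%-Axitinib group, without the neutrophil- and keratinocyte-containing samples (−1.47) and with DESeq2's Wald test (−1.39), and missed it without the muscle-containing samples (−2.15). In the 3%-Axitinib group alone the mean of Itgb2, named after its values were seen, was higher (612 against 507 CPM).

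**Figure D2:**
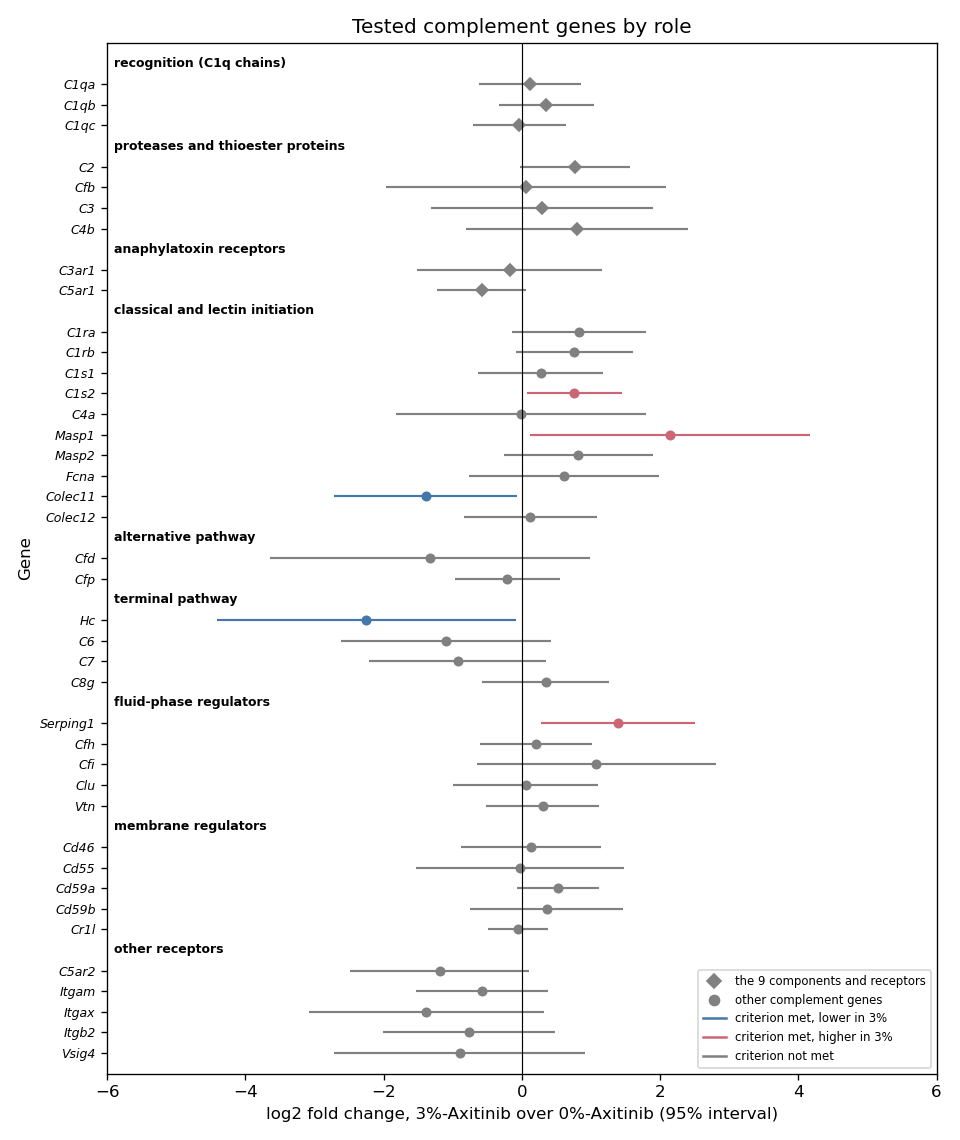
Log2 fold change (3%-Axitinib over 0%-Axitinib) of the 40 tested complement genes by role, with 95% intervals from edgeR (3 samples per group). The intervals of all 9 components and receptors include 0, and those of Serping1, C1s2, Masp1, Colec11 and Hc do not.

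Markers of cells that make or carry complement proteins were measured beside these genes. By the criterion, 11.7% of all tested genes were lower in the 3%-Axitinib group and 9.54% higher. The 12 macrophage markers, all tested and led by Lyz2, summed to 10044, 10937 and 7270 CPM in the 0%-Axitinib group and to 7560, 8952 and 15247 CPM in the 3%-Axitinib group. Only Cx3cr1 (log2 fold change −1.52) and Timd4 (−1.87) met the criterion among them, both lower, and the median of the list was −0.19. Like the levels of the C1q chains, the summed levels of the groups overlapped. The 10 fibroblast markers, led by Col1a1, summed to 27825, 13718 and 10939 CPM and to 24778, 71570 and 27275 CPM. Of these 10, 3 were higher by the criterion (Col1a1 at 1.79, Mfap5 at 1.43 and Fbln1 at 1.39). The sum was highest in replicate 2 of the 3%-Axitinib group, mostly through collagen genes. The 8 hepatocyte markers summed to 60.9, 39.9 and 14.3 CPM and to 77.2, 1.00 and 8.86 CPM. They were led by Cyp2e1, at 59.5, 38.5 and 13.9 CPM against 69.7, 0.547 and 7.53 CPM, so the sum mostly follows this 1 gene. Neither of the 2 tested markers met the criterion. Ttr and Fgb had at most 3 counts in every sample, and Alb, named after its values were seen, had 2, 2 and 0 counts against 36, 0 and 0 counts. The 10 adipocyte markers, led by Lpl, summed to 1847, 2894 and 1341 CPM and to 1177, 813 and 1386 CPM. Of these, 3 were lower and 1 was higher by the criterion, with Lep at −5.58, Plin4 at 2.52 and Pparg at −1.40. The log2 fold change was negative in 9 of the 10. Plin4 was at 23.3, 27.5 and 11.9 CPM against 212, 19.8 and 129 CPM, with its high samples the muscle-containing ones. The part of muscle RNA in it was not tested. The 10 endothelial markers, led by Pecam1, summed to 933, 632 and 1011 CPM and to 266, 290 and 403 CPM, and 9 were lower by the criterion, with Cldn5 at −2.38, Cdh5 at −2.37 and Kdr at −2.16. The 9 dendritic cell markers, led by Cd74, summed to 1096, 1361 and 3302 CPM and to 363, 190 and 443 CPM, and 8 were lower, with Cd209a at −3.16, Xcr1 at −2.78 and Flt3 at −2.73. The part of any of these cell types in the complement values was not tested.

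Complement genes are known to respond to interferon gamma and to cytokines of the acute phase. Of 17 tested genes of the interferon gamma response, 14 were lower and 0 higher in the 3%-Axitinib group by the criterion, beside 11.7% and 9.54% of all tested genes. The median log2 fold change was −1.49, and 0 of the 17 had an adjusted p up to 0.05 with edgeR. The summed level of the list was 878, 831 and 1413 CPM in the 0%-Axitinib group and 526, 464 and 540 CPM in the 3%-Axitinib group, with Ifngr1 as the most abundant gene. Examples were Cxcl9 (−4.73), Cxcl10 (−3.55) and Gbp4 (−3.25). Cxcl9 was at 6.89, 17.0 and 97.3 CPM against 3.19, 0.456 and 1.04 CPM. Cxcl10 was at 1.83, 1.81 and 21.8 CPM against 0.440, 0.0911 and 1.51 CPM. Both were highest in the library with neutrophil RNA. Gbp4 was not, at 88.8, 31.9 and 69.6 CPM against 5.72, 7.84 and 6.48 CPM. C2, C4b and Cfb, complement genes known to respond to interferon gamma, had log2 fold changes of 0.77, 0.80 and 0.058 in the same samples. Of these, 0 met the criterion. The counts of these genes are uncertain, as described above, and the part of interferon gamma in their values was not tested. Of 17 tested genes of the cytokine and acute-phase list, 3 were lower and 3 higher by the criterion, beside 11.7% and 9.54% of all tested genes. The list had a median of −0.30 and sums of 1355, 1109 and 4377 CPM and of 2470, 1485 and 1314 CPM. Its most abundant gene by the mean over the 6 samples, Lcn2, led through the library with neutrophil RNA, at 2.35, 4.96 and 1988 CPM against 26.0, 25.0 and 12.3 CPM. The examples by size were Saa3 (3.51), Il1b (−2.10) and Osm (−1.61). Saa3 was at 20.4, 18.9 and 42.2 CPM against 578, 289 and 63.3 CPM. C3 is induced in the acute phase, and the part of such signals in its values was not tested.

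The patterns of complement genes over the 6 samples were compared by the root-mean-square difference of gene-centred log2 CPM. C1qa, C1qb and C1qc, which are part of the mean C1q pattern, differed from it by 0.107, 0.155 and 0.095. C4b was at 0.335 from C3, the smallest difference from C3 among the other members. The mean C1q pattern was nearly flat, with a root-mean-square of 0.256, against 0.899 for C3. Among 9946 tested genes compared, those most like the C1q pattern were Abhd8 (0.073), Ube2e2 (0.081), Dusp22 (0.086), Sh3bp4 (0.104) and Dhx57 (0.121), and those most like C3 were Sema3e (0.183), Sema3c (0.240), Entpd2 (0.273), Nov (0.291) and Il17rd (0.293). Sema3e was at 19.0, 9.10 and 4.67 CPM in the 0%-Axitinib group and at 24.1, 3.74 and 19.1 CPM in the 3%-Axitinib group, with its low samples those of C3.

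Promoter sequences from RefSeq (GRCm38.p6) were found for 5 of the 9 members, C1qb, C1qc, C3, C3ar1 and C5ar1, and the 250 bases before each annotated start were searched on both strands. The windows of C1qc, C5ar1 and, at its last bases, C3ar1 overlap the GENCODE spans given above, so part of these windows lies inside the annotated gene. Shown are those of C1qb (chr4:136886201-136886450) and C3 (chr17:57228137-57228386), both on the minus strand and written 5′ to 3′ in that direction, as examples of members with a small and a large spread over the samples. Capitals mark motif matches, and adjoining capitals in C1qb are matches on both strands that overlap.
C1qb: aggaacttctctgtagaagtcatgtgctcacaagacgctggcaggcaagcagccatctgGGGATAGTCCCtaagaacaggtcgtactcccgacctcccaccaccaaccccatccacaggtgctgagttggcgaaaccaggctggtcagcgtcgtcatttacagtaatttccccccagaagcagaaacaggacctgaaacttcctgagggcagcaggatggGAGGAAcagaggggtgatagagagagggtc
C3: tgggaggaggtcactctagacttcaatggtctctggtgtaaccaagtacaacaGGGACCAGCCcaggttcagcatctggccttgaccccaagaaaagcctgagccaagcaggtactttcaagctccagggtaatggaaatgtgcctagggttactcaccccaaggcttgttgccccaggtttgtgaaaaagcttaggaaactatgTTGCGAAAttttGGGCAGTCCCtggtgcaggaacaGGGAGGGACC
The PU.1 core GAGGAA was found in C1qb, 30 to 25 bases before the start, and on the other strand in C1qc, 193 to 188 bases before it, and 23.3% of 32851 RefSeq promoters of this length hold it. The C/EBP letters TTGCNNAA were found in C3, 45 to 38 bases before the start, and are held by 9.56% of promoters. The NF-kB letters, GGGA and CC with any 4 bases between them, were found in C1qb, in C1qc inside the GENCODE span of the gene, and in C3 with 3 matches, and are held by 17.6%. TATAAA was found in C3ar1 and is held by 12.4%, and the GAS letters TTCNNNGAA, held by 7.02%, were found in none of the 5. A match describes the letters of this window and does not show binding.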

How the data were processed

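Reads were filtered with fastp and mapped to mm10 (GRCm38) by the authors, who deposited raw counts for each gene. The aligner was STAR (version 2.5.2b in the submitters' processing notes). The annotation release and strand setting are not given in the sources used here. The 4 lines of reads given to no gene held between 19.1% and 57.8% of a library and stayed out of library sizes and tests.

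Counts were filtered with edgeR's filterByExpr (minimum count 10, minimum total 15), normalized with TMM and tested with edgeR's quasi-likelihood test (edgeR 4.0.16, limma 3.58.1, R 4.3.3), 3 samples against 3, with Benjamini-Hochberg adjustment over 15257 genes. The criterion was a change of 1.5-fold or more with an unadjusted p up to 0.05. Tests are two-sided. The test was checked on simulated data. Members and lists were chosen with earlier results of these data known. Named were the 9 members, other complement genes that met the criterion or were the most abundant (by mean CPM over the 6 samples) of their role, and of each marker or inducer list the most abundant gene, genes with at most 3 counts in every sample and up to 3 largest changes meeting the criterion. Also named were the 5 genes of at least 10 CPM most like the C1q mean and C3, and others are said to have been named after their values were seen. An item among the other complement genes is not reported here.

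Alternatives were DESeq2 (1.42.0) size factors and Wald test, limma-voom, total counts, TMM without muscle genes, other filters, a fold of 2, the replicate number as a block and each sample left out. Library sizes without neutrophil, muscle and keratinocyte genes, and fits without 2 samples, were chosen after seeing the data. Positions, exon lengths and shared sequence come from GENCODE M21, in which 90.8% of gene names were found. Promoters come from RefSeq, and motifs were chosen after the sequences were read. Figures were drawn with matplotlib 3.10.9 in Python 3.11.15.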

Additional observations from a re-analysis of the deposited data

How the results depend on the processing

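No member reached an adjusted p of at most 0.05 under any alternative run. The number of members meeting the criterion lower was 1 with total counts and 1 with no filter on low counts (C5ar1 in both), and 0 to 1 with each sample left out in turn (C5ar1 without replicate 1 of the 0%-Axitinib group). The number higher was 1 with DESeq2's Wald test (C2), and 0 to 1 with each sample left out. The median log2 fold change of the members was between −0.075 and 0.51 with each sample left out, the highest without replicate 1 of the 0%-Axitinib group. Of the other complement genes, those lower by the criterion numbered 1 with at least 10 counts in every sample, 1 to 5 with each sample left out (5 without replicate 3 of the 0%-Axitinib group), and 4 in each fit without 2 samples. Those higher numbered 1 with total counts, 0 to 4 with each sample left out (0 without replicate 2 of the 0%-Axitinib group or replicate 1 of the 3%-Axitinib group), and 1 in each fit without 2 samples. An adjusted p of at most 0.05 was reached by 1 of them with DESeq2's Wald test and by 0 to 1 with each sample left out. The fits without 2 samples leave 1 sample in a group, which is assumed to vary like the other group. The cause of these changes was not tested.

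Over all tested genes, those lower by the criterion numbered 608 without both muscle-containing samples, 1176 without the neutrophil- and keratinocyte-containing samples and 1072 at a fold of 2, against 1785. Those higher numbered 558 without the muscle-containing samples, 879 at a fold of 2, and 1055 to 2274 with each sample left out, against 1456. Adjusted calls over all tested genes numbered 1 with edgeR, 1960 with DESeq2's Wald test, 2 with limma-voom, 15 with no filter, 1252 without replicate 3 of the 0%-Axitinib group, 58 without replicate 2 of the 3%-Axitinib group and 0 without any other single sample.

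Whether samples with the same replicate number shared more than the number cannot be told from 3 samples per group. The correlations of their deviations were 0.182, −0.115 and −0.174, and those of samples with unlike numbers lay between −0.221 and 0.212. With the replicate number as a block, 0 members met the criterion, 0 other complement genes were lower by it, against 2, and 2 genes of all had an adjusted p of at most 0.05. Cfb had at most 21 counts in a sample. The parts of low expression, of depth and of uncounted reads on shared exon bases in this were not tested.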
